A study of Mus musculus with 120 samples.

Results

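Teneurins and latrophilins are neuronal adhesion proteins that bind each other across the synaptic cleft. The 4 mouse teneurin genes (Tenm1, Tenm2, Tenm3 and Tenm4) and the 3 latrophilin genes (Adgrl1, Adgrl2 and Adgrl3) were taken from the deposited table by gene symbol. All 7 were found, of 16538 genes in the table. Teneurins are large proteins that span the membrane and carry their adhesive part outside the cell. They bind other teneurins of the same kind as well as latrophilins, and in the mouse hippocampus matching Tenm3 in projecting and target neurons is known to guide connections. Latrophilins are G protein-coupled adhesion receptors that also bind FLRT proteins. Their name comes from the spider toxin for which Adgrl1 was first found as a receptor.

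The libraries came from mouse thalamic neurons labelled backwards from their target with a retrograde tracer, dissected by nucleus, sorted by hand and pooled for bulk RNA-seq. There were 120 libraries in 24 groups of 1 to 9, from 85 animals, each library made from 14 to 200 cells (median 60.5). Of these, 92 libraries were labelled with the lipophilic dye DiI and 28 with a retrograde adeno-associated virus (AAV). A group here is a nucleus, a tracer and a target, and 22 nuclei were sampled.

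The 7 nuclei traced from the striatum with AAV were the paraventricular (PVT), intermediodorsal (IMD), paracentral (PCN), central medial (CM), central lateral (CL) and parafascicular (PF) nuclei and the subparafascicular area (SPA). A second CM group was traced from the striatum with DiI. The other nuclei were traced from cortex with DiI. The anterodorsal (AD), laterodorsal (LD) and anteroventral (AV) nuclei were traced from retrosplenial cortex, and the lateral posterior (LP) and dorsal lateral geniculate (LGd) nuclei from visual cortex. The posterior (PO) and ventrobasal (VB) nuclei were traced from somatosensory cortex, and the ventromedial (VM), ventral anterior (VA) and ventrolateral (VL) nuclei from motor cortex. The reuniens (RE), anteromedial (AM) and interanterodorsal (IAD) nuclei were traced from cingulate cortex, the mediodorsal nucleus (MD) from orbital cortex and the parvicellular ventral posteromedial nucleus (VPMpc) from insular cortex. A further AM group, of 1 library, was labelled with AAV.

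The genotype was given as wild type for 119 libraries and as 33.7-Gad2 for 1 VA library. The libraries came from males in 72 cases, females in 47 and both sexes in 1, and 13 were pooled from several animals. Ages ran from 55 to 447 days, with no age given for 3 libraries. All AD, LD, AV, LP, LGd, PO and VB libraries were male. AD animals were 97 to 100 days old, LD animals 90 to 442 days and AV animals 97 to 444 days. LP animals were 64 to 135 days old and LGd animals 64 to 136 days, and 4 of the 5 LGd libraries were pooled. PO and VB animals were both 69 to 100 days old, and 3 of the 4 VB libraries were pooled. VM held 3 male and 3 female libraries at 95 to 112 days, VA 1 male and 7 female libraries at 87 to 182 days, and VL 3 male, 2 female and 1 mixed library at 87 to 163 days. RE held 3 male and 5 female libraries at 55 to 114 days, and AM 4 female libraries at 69 to 72 days. PVT, CL, PF and SPA were female, PCN and CM by AAV held 2 males and 2 females each, and CM by DiI was male. PVT animals were 99 to 103 days old, CL animals 98 to 103, PCN and CM by AAV 125 to 136, PF and SPA 125 to 157, and CM by DiI 98 to 99. IMD held 4 female libraries at 98 to 103 days, IAD 2 male and 1 female at 55 to 114 days, and MD 6 male at 83 to 94 days. VPMpc held 5 male and 1 female libraries at 62 to 447 days, of which 2 were over 400 days. The AM library by AAV was female, at 77 days. Where groups differ in sex, age or tracer, these cannot be told apart from the nucleus.

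Total counts per library ran from 8159497 to 26444831 (median 15571299.5). Levels are given as counts per 1000000 counts of the library (CPM), with library sizes scaled by the trimmed mean of M-values, and levels of different genes are compared only after division by exon length (CPM per kb). The neuronal genes Snap25 and Rbfox3 and the thalamic relay genes Slc17a6 (vesicular glutamate transporter) and Tcf7l2 were read in every library, at no less than 4200, 36.47, 517.8 and 813.3 CPM. The summed level of 7 oligodendrocyte markers passed 200 CPM in 15 libraries and reached 2002 CPM in VB and 4095 CPM in VA. In bulk libraries, fewer cells that express a gene and less RNA per cell cannot be told apart.

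All 7 genes are protein-coding and are placed here on mm10. Tenm1 (ENSMUSG00000016150.15) lies at chrX:42527866-43429126 on the minus strand, Tenm2 (ENSMUSG00000049336.16) at chr11:36006656-37235964 on the minus strand, Tenm3 (ENSMUSG00000031561.16) at chr8:48227682-48843951 on the minus strand and Tenm4 (ENSMUSG00000048078.16) at chr7:96171246-96911093 on the plus strand. Adgrl1 (ENSMUSG00000013033.16) lies at chr8:83900105-83941954 on the plus strand, Adgrl2 (ENSMUSG00000028184.12) at chr3:148815583-148990555 on the minus strand and Adgrl3 (ENSMUSG00000037605.16) at chr5:81020138-81825133 on the plus strand. Exons add up to between 8.587 kb (Adgrl1) and 21.021 kb (Tenm4). Exons of 6 of the 7 genes (all but Tenm2) overlap exons of another gene on the opposite strand, by 114 bases for Tenm3 to 1582 bases for Adgrl3. The amplification did not keep the strand, so reads in those stretches cannot be assigned with certainty.

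The promoters of Tenm1, Tenm3 and Adgrl2 are shown for the reason that follows. Only these genes had neighbouring nuclei, in the order of means described below, whose library ranges did not overlap. Each runs from 250 bases before to 50 bases after a RefSeq transcript start, read 5′ to 3′ on the gene's strand, from RefSeq on GRCm38.p6 (the build named mm10). For these 3 genes that start lies inside the wider GENCODE span given above, which begins at transcript starts further upstream, so other promoters of these genes are not shown. Tenm1 is at chrX:43274735-43275034, Tenm3 at chr8:48674641-48674940 and Adgrl2 at chr3:148954586-148954885, all on the minus strand. Capitals mark matches to 5 short motifs searched on both strands: the GC box GGGCGG, the Tcf/Lef core CTTTGA, the nuclear receptor half-site AGGTCA, the homeodomain core TAATTA and the forkhead site GTAAACA.
Tenm1: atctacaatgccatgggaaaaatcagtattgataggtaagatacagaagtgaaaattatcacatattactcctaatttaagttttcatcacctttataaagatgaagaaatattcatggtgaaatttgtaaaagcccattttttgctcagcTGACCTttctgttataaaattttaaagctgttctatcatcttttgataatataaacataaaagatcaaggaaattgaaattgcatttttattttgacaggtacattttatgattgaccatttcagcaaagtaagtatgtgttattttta
Tenm3: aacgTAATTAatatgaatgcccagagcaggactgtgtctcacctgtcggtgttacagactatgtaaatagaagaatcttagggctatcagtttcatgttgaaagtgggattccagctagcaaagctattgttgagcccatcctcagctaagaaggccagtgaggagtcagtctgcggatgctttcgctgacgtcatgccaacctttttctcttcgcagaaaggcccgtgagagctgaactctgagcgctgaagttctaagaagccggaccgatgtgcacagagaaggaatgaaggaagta
Adgrl2: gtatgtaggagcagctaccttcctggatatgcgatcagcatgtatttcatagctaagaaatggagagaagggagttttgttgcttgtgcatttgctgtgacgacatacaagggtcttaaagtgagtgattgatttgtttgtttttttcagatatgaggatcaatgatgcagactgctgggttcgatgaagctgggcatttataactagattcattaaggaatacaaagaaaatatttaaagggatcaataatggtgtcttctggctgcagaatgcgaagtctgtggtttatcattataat
The Tenm1 promoter held the reverse complement of the half-site, with its first base 99 bases before the start, and 16.3% of all 32851 promoters in the table held that motif on either strand. The Tenm3 promoter held TAATTA 246 bases before the start, which 5.29% of promoters held. The Adgrl2 promoter held none of these letters. The GC content was 27.0% for Tenm1, 47.3% for Tenm3 and 38.0% for Adgrl2, against a median of 52.7% over all promoters. The GC box, held by 35.7% of all promoters, occurred in the promoters of Adgrl1 and Adgrl3.

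Each of the 7 genes differed between nuclei. In a test of equal means over the 22 nuclei, all 7 passed an adjusted p of 0.05 (edgeR quasi-likelihood F test, Benjamini-Hochberg over 16527 genes), where 55.1% of all genes tested passed. Tenm2 had the largest F statistic among them (29.57, adjusted p = 1.44e-33), at place 31 of all genes. Tenm1 followed with an F of 23.04 (adjusted p = 4.55e-29, place 78) and Adgrl2 with 21.11 (adjusted p = 1.59e-27, place 102). Tenm3 (F = 11.27, place 432), Tenm4 (F = 7.65, place 926), Adgrl1 (F = 6.02, place 1412) and Adgrl3 (F = 5.39, place 1700) stood further down the list. All 7 were detected in every one of the 120 libraries, and the lowest count was 50 reads, for Adgrl2.

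Tenm1, a teneurin encoded on the X chromosome, was highest in SPA at 1135 ± 62.2 CPM (SD, n = 4), followed by PCN (1059 ± 249.1 CPM, n = 4) and MD (1059 ± 233.4 CPM, n = 6). It was lowest in LD at 159 ± 82.9 CPM (n = 5), AV at 210 ± 42.7 CPM (n = 8) and LGd at 269 ± 89.6 CPM (n = 5). The highest mean was 7.13 times the lowest. From SPA down to AD the order ran through PCN, MD, CM, PF, AM, VM, RE, VPMpc, CL, IAD, PVT, IMD, VA, PO and LP. In this order the library ranges of neighbouring nuclei overlapped in 20 of 21 places. The exception was the step below AD: its libraries reached down to 467.4 CPM, while those of the next nucleus, VL, reached no higher than 413.7 CPM. By mean, VL (377 ± 40.0 CPM, n = 6), VB (318 ± 123.7 CPM, n = 4), LGd, AV and LD lay below that step. Single libraries crossed it: VB replicate 2 had 491.1 CPM, above the lowest AD library, and LP replicate 2 had 327.2 CPM. LGd replicate 1 fell between, at 426.2 CPM. The share of all genes with such a step between neighbours was not computed, here or for the genes below.

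Tenm2, another of the teneurins that bind latrophilins, was highest in AD at 975 ± 273.0 CPM (n = 4), LD at 916 ± 139.8 CPM (n = 5), LP at 740 ± 127.9 CPM (n = 9), AV at 723 ± 98.8 CPM (n = 8) and RE at 709 ± 157.5 CPM (n = 8). It was lowest in VPMpc at 89.5 ± 45.2 CPM (n = 6), SPA at 119 ± 27.6 CPM (n = 4) and VM at 136 ± 45.6 CPM (n = 6). The highest mean was 10.9 times the lowest, and the ranges of neighbours overlapped in all 21 places. Between these lay IAD, AM, LGd, PVT, CL, PCN, VL, VA, VB, PF, CM, IMD, PO and MD, in falling order from 641 to 166 CPM. The 3 PVT libraries spread widely, at 198.2, 250.9 and 770.9 CPM. Across the 22 nuclei the means of Tenm1 and Tenm2 had a Pearson r of -0.49 (Spearman rho -0.48), given as a description.

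Tenm3, the teneurin best known from mouse circuit wiring, was highest in LP at 444 ± 96.0 CPM (n = 9), VM at 375 ± 83.4 CPM (n = 6), LGd at 371 ± 65.2 CPM (n = 5) and LD at 369 ± 60.4 CPM (n = 5). It was lowest in AM at 157 ± 14.7 CPM (n = 4), RE at 108 ± 24.6 CPM (n = 8) and AD at 42.6 ± 8.42 CPM (n = 4), and the highest mean was 10.4 times the lowest. The 15 nuclei between LD and AM had means of 182 to 359 CPM and ran in the order MD, PO, VB, PCN, CL, VA, AV, IMD, VL, CM, PVT, PF, SPA, IAD and VPMpc. Neighbours in this order of means overlapped in 19 of 21 places. Both steps without overlap lay at the bottom, between AM and RE and between RE and AD. The step above RE did not split the libraries of all nuclei. VPMpc replicate 2 (107.2 CPM), MD replicate 5 (99.02 CPM) and VA replicate 3 (93.17 CPM) lay within the RE range of 60.57 to 137.3 CPM. AD reached 53.12 CPM at most, below every library of the other nuclei.

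Tenm4 was highest in AD at 610 ± 129.1 CPM (n = 4), followed by LD (412 ± 167.7 CPM, n = 5), RE (376 ± 83.9 CPM, n = 8) and LP (367 ± 115.0 CPM, n = 9). It was lowest in CM (178 ± 27.2 CPM, n = 4), VPMpc (166 ± 51.9 CPM, n = 6) and VL (159 ± 31.0 CPM, n = 6), and the highest mean was 3.85 times the lowest. Neighbours overlapped in all 21 places. The nuclei between LP and CM were IAD, AM, IMD, PVT, MD, LGd, PO, PF, CL, SPA, VB, PCN, VM, VA and AV, at 184 to 321 CPM.

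Adgrl1, the latrophilin first found as the receptor for the spider toxin, was highest in the motor nuclei VM at 654 ± 177.4 CPM (n = 6) and VL at 549 ± 135.2 CPM (n = 6), with PCN at 503 ± 56.1 CPM (n = 4) and VA at 489 ± 121.1 CPM (n = 8) next. It was lowest in IMD at 257 ± 23.7 CPM (n = 4), AV at 234 ± 82.2 CPM (n = 8) and AD at 184 ± 48.2 CPM (n = 4). The highest mean was 3.55 times the lowest, with overlap of neighbours in all 21 places. LD, CM, CL, PF, MD, RE, AM, PO, PVT, VPMpc, IAD, LP, LGd, SPA and VB lay between VA and IMD, at 271 to 483 CPM.

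Adgrl2 spanned the widest range of the 7 genes. Its mean was 305 ± 90.1 CPM in MD (n = 6), 289 ± 59.1 CPM in AV (n = 8), 254 ± 23.5 CPM in IAD (n = 3) and 253 ± 77.5 CPM in VPMpc (n = 6), against 9.60 ± 4.52 CPM in AD (n = 4), a ratio of 31.7 between MD and AD. The nuclei just above AD were PVT at 65.9 ± 10.6 CPM (n = 3), IMD at 70.9 ± 25.4 CPM (n = 4) and CM at 97.7 ± 13.9 CPM (n = 4). Only the last step had no overlap among the 21: the AD libraries reached 16.29 CPM at most, and the PVT libraries no less than 57.46 CPM. RE, AM, PO, VM, LGd, LD, VA, PF, LP, VB, VL, PCN, CL and SPA lay between VPMpc and CM, at 112 to 243 CPM.

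Adgrl3 varied least. It was highest in VPMpc at 626 ± 175.9 CPM (n = 6), RE at 535 ± 157.1 CPM (n = 8) and PCN at 515 ± 232.1 CPM (n = 4), and lowest in LD at 265 ± 114.5 CPM (n = 5), PVT at 257 ± 45.3 CPM (n = 3) and VL at 245 ± 29.1 CPM (n = 6). The highest mean was 2.55 times the lowest, and neighbours overlapped in all 21 places. MD, SPA, AM, CL, IAD, CM, PF, LP, AV, PO, AD, IMD, VM, VB, LGd and VA lay between PCN and LD, at 279 to 486 CPM.

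**Figure D1:**
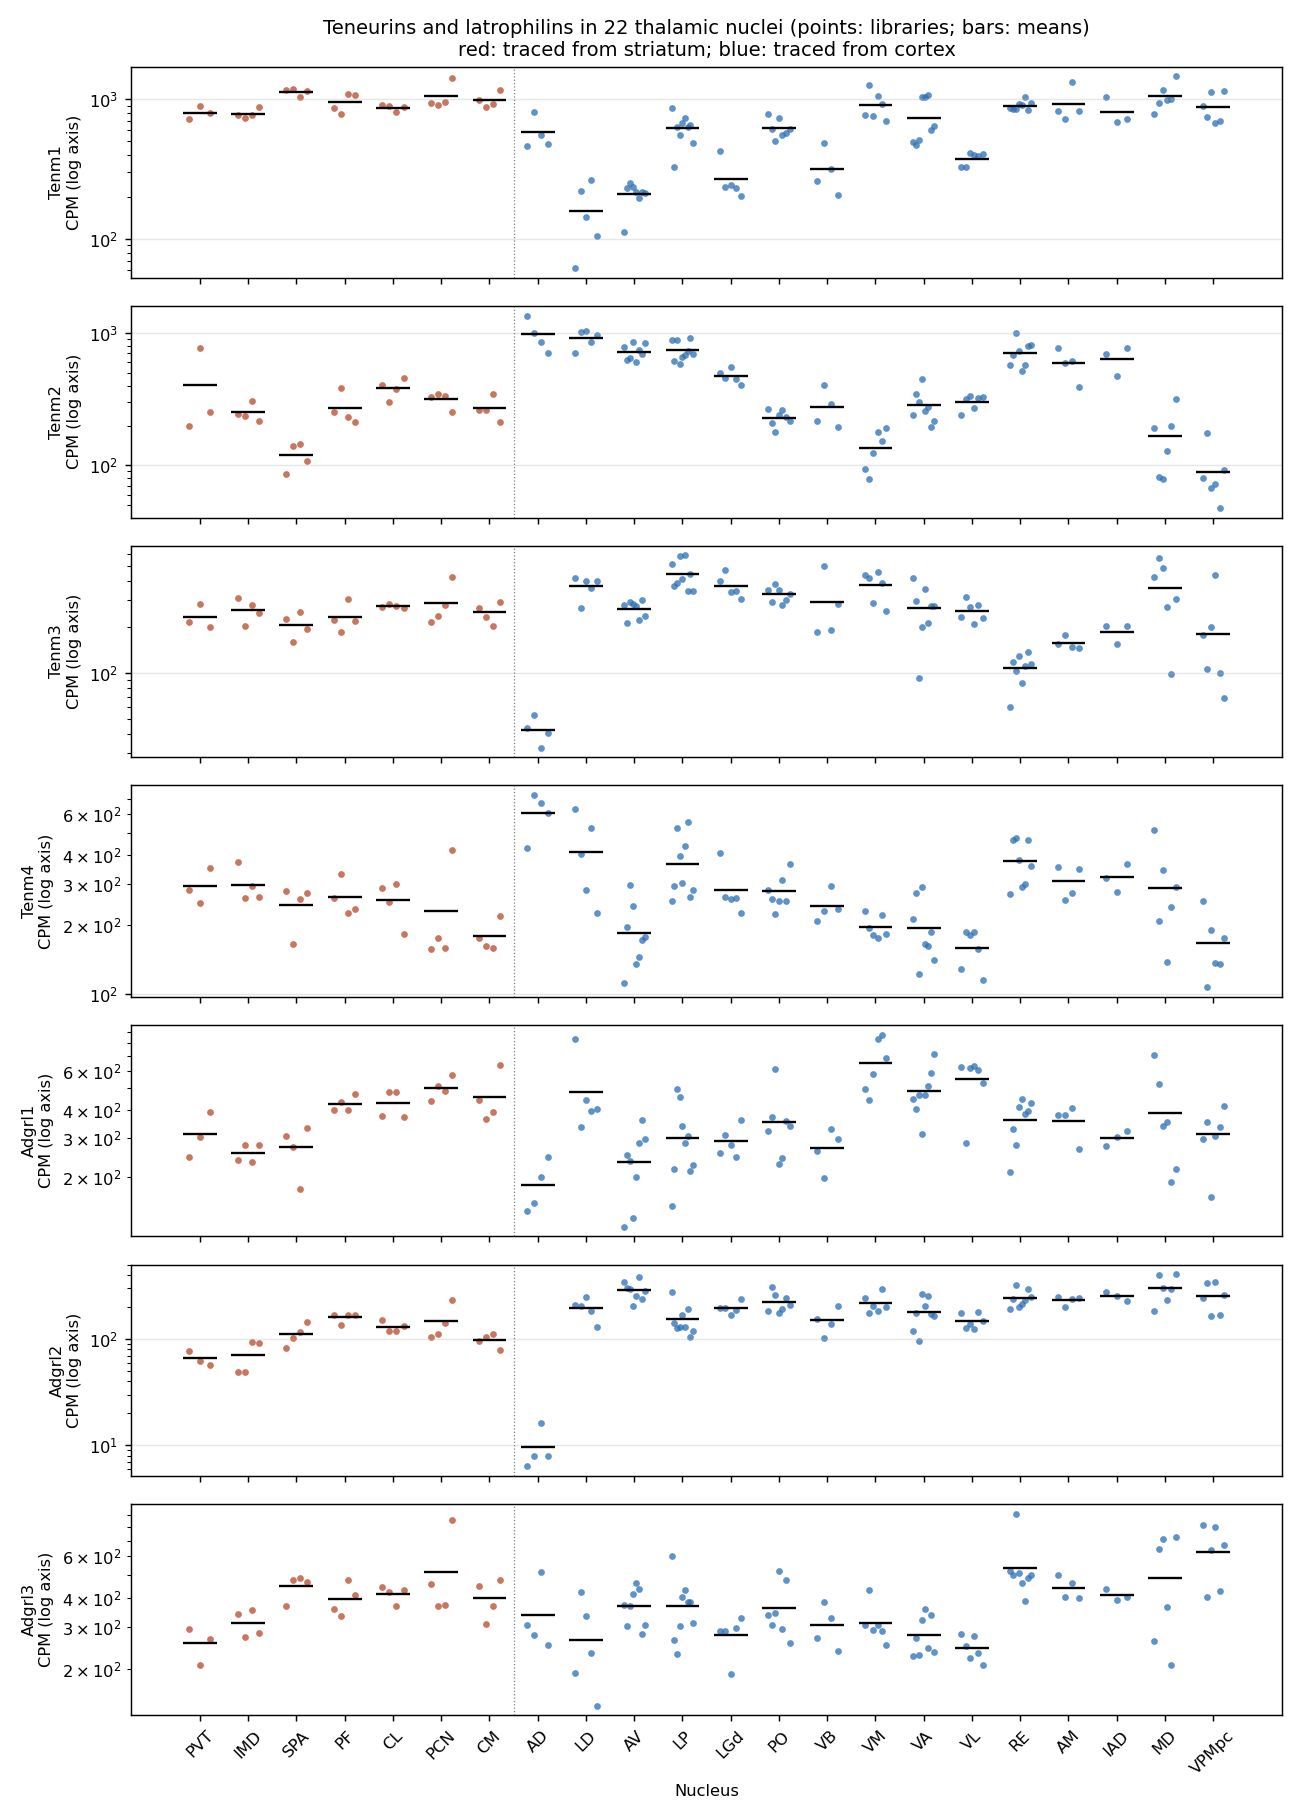
Level of each gene (CPM, log axis) in every library of the 22 nuclei, with the nuclei traced from the striatum in red on the left and those traced from cortex in blue on the right; points are libraries and bars are means. Adgrl2 drops to 9.60 CPM in AD, Tenm3 to 42.6 CPM in AD, and Tenm1 is below 414 CPM in every VL library.

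Set against exon length, the make-up of each family differed by nucleus. By group means, Adgrl1 was the most abundant latrophilin per kb in all 22 nuclei. It held 39.87% to 72.46% of the family's summed CPM per kb. In VPMpc its lead lay within 1 SD, at 36.31 ± 9.95 CPM per kb against 35.25 ± 9.91 for Adgrl3. Adgrl2 made up 1.64% of the latrophilin sum in AD and 29.76% in AV, the extremes of its range. Adgrl3 made up 15.67% in VL and 46.28% in AD. Among the teneurins, Tenm1 had the highest group mean per kb in 13 nuclei, Tenm2 in 8 and Tenm3 in 1, which was VB. Some of these leads lay within 1 SD, among them those in VB and AM. In VB, Tenm3 had 28.34 ± 14.41 CPM per kb against 24.12 ± 8.335 for Tenm2. In AM, Tenm1 had 52.31 ± 15.65 CPM per kb against 51.41 ± 13.39 for Tenm2. Tenm1 made up 60.17% of the teneurin sum in SPA and 6.22% in LD, and Tenm2 made up 57.66% in AV and 9.36% in VPMpc. Tenm4 was the most abundant in none and stayed between 7.54% (CM) and 19.25% (AD). The teneurin sum itself ran from 80.2 CPM per kb in VL to 160.3 CPM per kb in LP, and the latrophilin sum from 41.2 CPM per kb in AD to 109.2 CPM per kb in VM. Without division by length, Adgrl3 led in 13 nuclei and Adgrl1 in 9 among the latrophilins, and Tenm1 led in 17 and Tenm2 in 5, so the leading gene of both families rests on the exon lengths used.

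**Figure D2:**
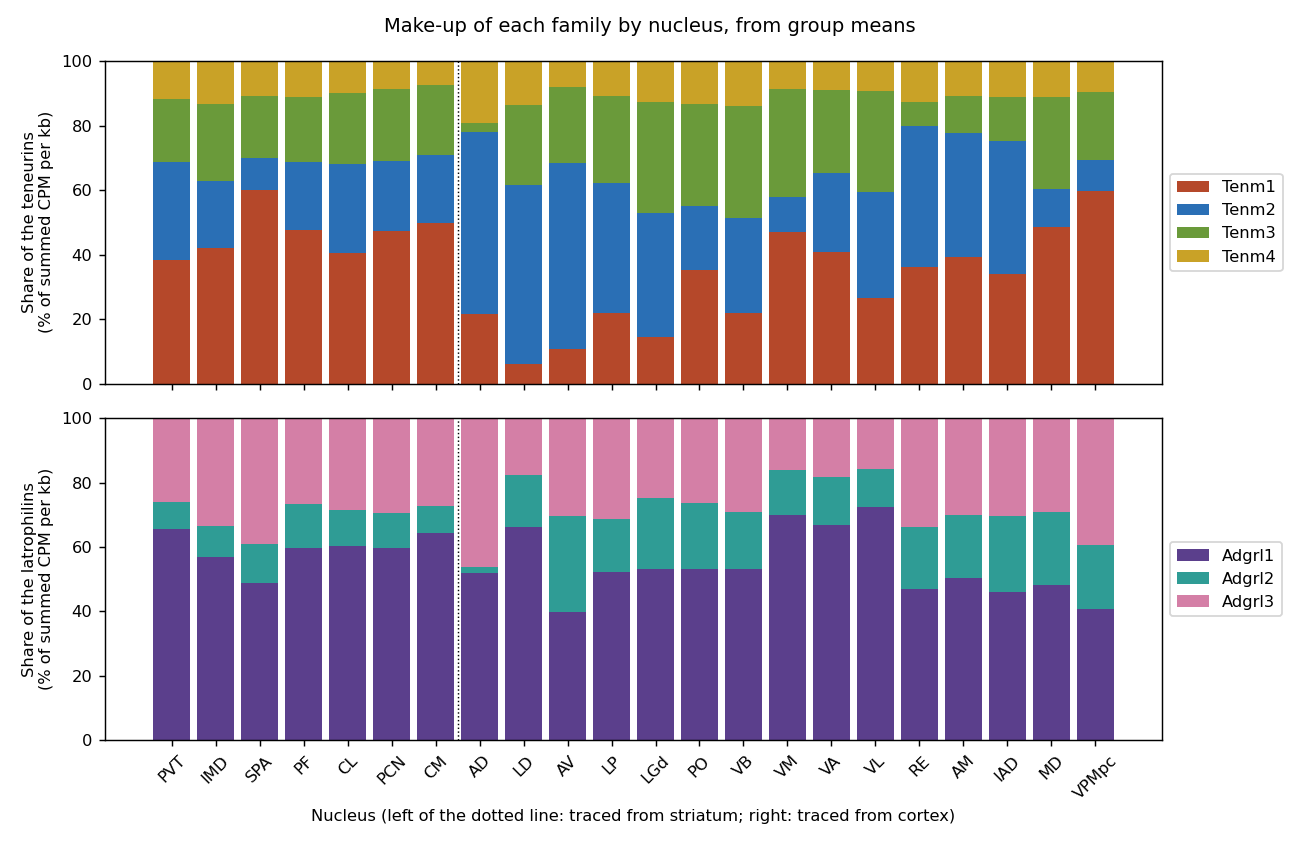
Share of each gene in its family's summed CPM per kb (percent, group means), for teneurins above and latrophilins below, by nucleus. Tenm1 fills 60.17% of the teneurin bar in SPA and 6.22% in LD, and the Adgrl2 band almost disappears in AD, at 1.64%.

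The retrosplenial nuclei gave the largest differences. AD neurons are known as the head-direction relay of the anterior thalamus. In AD, compared with AV, Tenm1 and Tenm4 rose and Tenm3 and Adgrl2 fell, so 4 of 7 genes passed, against 5.69% of the 16527 genes tested. The median log2 fold change was -0.12 over the 7 genes and -0.08 over all genes tested. Adgrl2 had the largest F statistic of all genes in this comparison.

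Adgrl2 had 6.341, 7.883, 16.29 and 7.873 CPM in the 4 AD libraries, against a lowest, median and highest of 203.3, 289.0 and 388.2 CPM in the 8 AV libraries. Every AD library lay below every AV library (the groups did not overlap for 3.88% of all genes tested), and the log2 fold change was -4.91 (SE 0.31, adjusted p = 1.24e-26). Tenm3 had 44.00, 53.12, 32.82 and 40.53 CPM in AD, against 212.9, 275.9 and 298.8 CPM (lowest, median, highest) in AV. The groups did not overlap here either, with a log2 fold change of -2.62 (SE 0.30, adjusted p = 1.72e-11).

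Tenm4 had 430.4, 727.0, 673.8 and 610.5 CPM in AD, against 112.0, 174.3 and 295.8 CPM in AV, with AD wholly above AV (log2 fold change 1.73, SE 0.24, adjusted p = 1.16e-08). Tenm1 had 467.4, 817.7, 556.6 and 476.1 CPM in AD, against 112.2, 218.0 and 252.2 CPM in AV, again without overlap (log2 fold change 1.46, SE 0.21, adjusted p = 3.68e-08). Tenm2 (log2 fold change 0.43, adjusted p = 0.328), Adgrl1 (-0.35, adjusted p = 0.51) and Adgrl3 (-0.12, adjusted p = 0.848) did not pass. The AD libraries were all amplified on 1 date, shared with 5 of the AV libraries. Within that date the 4 genes kept their calls, with log2 fold changes of -4.90 for Adgrl2 (adjusted p = 3.73e-06), -2.69 for Tenm3 (6.32e-05), 1.62 for Tenm4 (0.0039) and 1.44 for Tenm1 (0.0056).

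LD, the laterodorsal nucleus, was set against the same AV libraries, so the LD and AD comparisons share their controls. Tenm4 and Adgrl1 rose in LD, which is 2 of 7 genes against 5.50% of all genes tested. Over the 7 genes the median log2 fold change was 0.34, and over all genes -0.03. Tenm4 had 629.1, 404.0, 281.0, 524.2 and 223.5 CPM in LD, against 112.0, 174.3 and 295.8 CPM (lowest, median, highest) in AV. The lowest LD libraries overlapped the highest AV libraries, and the log2 fold change was 1.17 (SE 0.23, adjusted p = 0.000132).

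Adgrl1 had 839.0, 335.0, 442.2, 395.8 and 403.5 CPM in LD, against 119.1, 242.9 and 358.8 CPM in AV. LD replicate 1 stood far above the other LD libraries, and 1 LD library lay below the highest AV library. The log2 fold change was 1.05 (SE 0.23, adjusted p = 0.00136). Without LD replicate 1, Adgrl1 no longer passed (0.75, adjusted p = 0.0595). Within the 1 amplification date shared by both groups, with 2 LD and 3 AV libraries, neither gene passed (Tenm4 1.18, adjusted p = 0.22; Adgrl1 0.35, adjusted p = 0.77).

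Tenm1 had 159 ± 82.9 CPM in LD and 210 ± 42.7 CPM in AV (log2 fold change -0.40, adjusted p = 0.249), and Tenm3 369 ± 60.4 CPM in LD and 263 ± 32.9 CPM in AV (0.49, adjusted p = 0.231). Adgrl2 had 196 ± 44.0 CPM in LD and 289 ± 59.1 CPM in AV (-0.56, adjusted p = 0.115). None of these 3 passed with edgeR over all groups and libraries. Adgrl2 passed with DESeq2 (-0.61, adjusted p = 0.0338) and Tenm1 without LD replicate 4 (-0.66, adjusted p = 0.048). Some LD and AV animals were over 400 days old. Without them, in an alternative chosen after the data were seen, Tenm4 (adjusted p = 0.0048) and Adgrl1 (1.53, adjusted p = 0.000185) passed. The libraries left out were those of the 1 date shared by LD and AV, so date and nucleus cannot be told apart in that fit. Adgrl1 averaged 187.0 CPM in the AV libraries kept and 312.7 CPM in those left out.

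**Figure D3:**
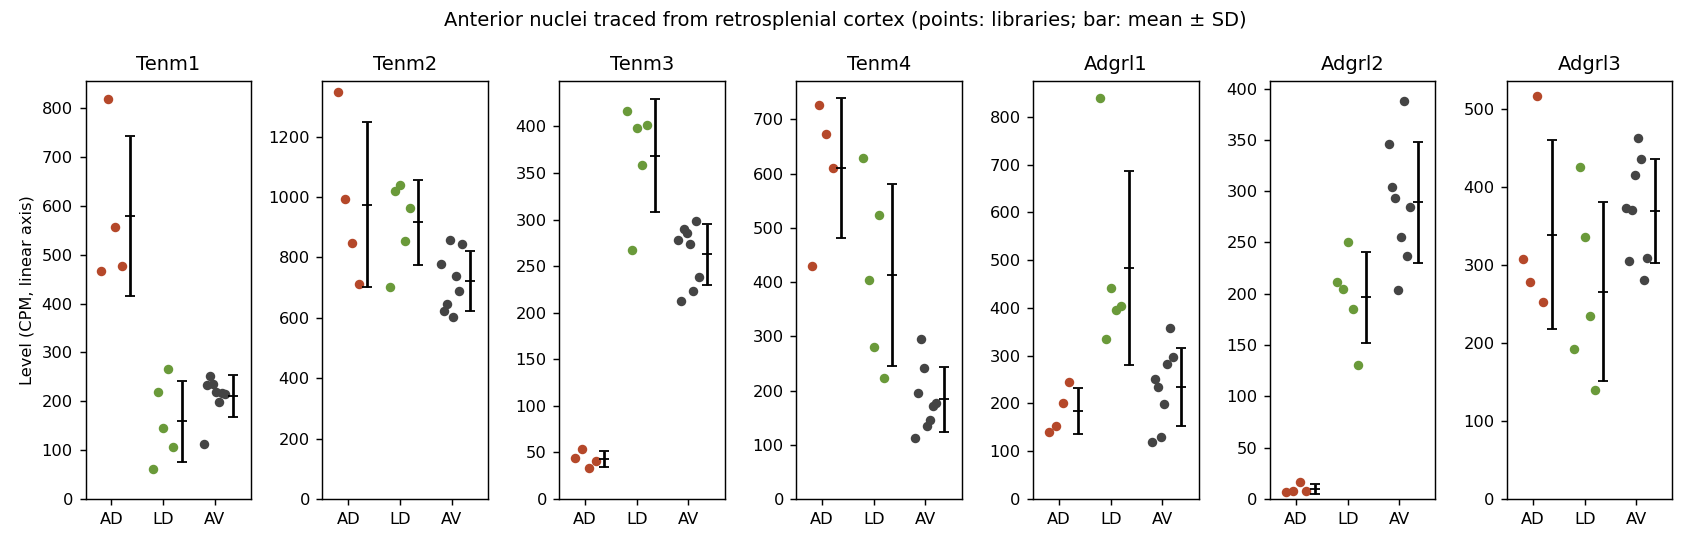
Level of each gene (CPM, linear axis) in the AD, LD and AV libraries traced from retrosplenial cortex, with the mean ± SD beside the points. AD lies apart from AV for Tenm1, Tenm3, Tenm4 and Adgrl2, while LD overlaps AV for all 7 genes.

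Tenm1 also separated nuclei that project to a shared sensory or motor cortical area. It was higher in LP than in LGd, in PO than in VB, and in VM and VA than in VL, where the last 2 comparisons share the VL libraries. LP and PO are known as higher-order sensory nuclei, and LGd and VB as the first-order relays of vision and touch.

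In LP compared with LGd, 1 of 7 genes passed, against 3.62% of all genes tested. The median log2 fold change was 0.38 over the 7 genes and 0.10 over all genes. Tenm1 had 327.2, 637.0 and 868.9 CPM (lowest, median, highest) in the 9 LP libraries, against 426.2, 237.7, 243.3, 233.5 and 201.8 CPM in LGd. The groups overlapped through the lowest LP library and the first LGd library, and the log2 fold change was 1.21 (SE 0.21, adjusted p = 1.16e-05). Tenm2 lay between 585.5 and 922.4 CPM in LP and between 402.8 and 549.1 CPM in LGd, without overlap (as for 2.37% of all genes), but did not pass (0.66, SE 0.23, adjusted p = 0.0938). It passed when the 2 groups were fitted alone (adjusted p = 0.00848), with limma-voom (0.0247) and within the shared date (0.00686). Tenm3, which is known to guide visual projections in the mouse, had 444 ± 96.0 CPM in LP and 371 ± 65.2 CPM in LGd (0.26, adjusted p = 0.729).

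In PO compared with VB, 1 of 7 genes passed, against 2.65% of all genes tested. A median log2 fold change of 0.25 was found over the 7 genes and of 0.07 over all genes. Tenm1 had 502.5, 612.6 and 779.3 CPM (lowest, median, highest) in PO, against 259.5, 491.1, 315.8 and 206.2 CPM in VB. The groups did not overlap (as for 3.27% of all genes), and the log2 fold change was 0.98 (SE 0.23, adjusted p = 0.0039). The call was lost without VB replicate 4 (0.82, adjusted p = 0.0654) and within the 1 shared date (0.85, adjusted p = 0.327, 3 PO and 4 VB libraries). The summed oligodendrocyte markers moved with this comparison, at 3.81, 38.46 and 237.6 CPM (lowest, median, highest) in PO and 75.42, 454.0 and 2002 CPM in VB. Without the libraries over 200 CPM, an alternative chosen after the data were seen, the log2 fold change was 0.76 (adjusted p = 0.263). The part of oligodendrocyte RNA in the result was not tested further.

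In VM compared with VL, 2 of 7 genes passed, against 1.69% of all genes tested. Their median log2 fold change was 0.35 over the 7 genes and 0.0006 over all genes. Tenm1 had 696.6, 844.9 and 1275 CPM (lowest, median, highest) in VM, against 325.4, 394.7 and 413.7 CPM in VL (log2 fold change 1.27, SE 0.21, adjusted p = 7.24e-06). Tenm2 went the other way, with 78.6, 138.0 and 190.3 CPM in VM, against 240.2, 320.2 and 335.1 CPM in VL (log2 fold change -1.15, SE 0.23, adjusted p = 0.000763). Neither gene's groups overlapped, as for 2.09% of all genes tested. Both kept their calls within the shared date (Tenm1 1.10, adjusted p = 0.00227; Tenm2 -0.95, adjusted p = 0.0154). Adgrl2 had 218 ± 45.03 CPM in VM and 149 ± 23.4 CPM in VL (0.55, adjusted p = 0.231), and Tenm3 375 ± 83.4 CPM in VM and 256 ± 40.1 CPM in VL (0.55, adjusted p = 0.338).

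VA was set against the same VL libraries. Here 1 of 7 genes passed, against 2.21% of all genes tested, and the median log2 fold change was 0.18 over the 7 genes and 0.09 over all genes. Tenm1 had 470.0, 627.2 and 1070 CPM (lowest, median, highest) in VA, against 325.4, 394.7 and 413.7 CPM in VL. These ranges did not overlap (as for 1.125% of all genes), and the log2 fold change was 0.96 (SE 0.20, adjusted p = 0.000692). The value was 0.79 (adjusted p = 0.0129) within shared dates and 0.87 (adjusted p = 0.00398) without the 33.7-Gad2 library, an alternative chosen after the data were seen. Tenm2 did not separate VA from VL, at 285 ± 80.5 CPM in VA and 302 ± 38.2 CPM in VL (-0.09, adjusted p = 0.948).

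RE and AM were traced from cingulate cortex, and 4 animals gave a library of each. None of the 7 genes passed in RE compared with AM (edgeR), against 1.84% of all genes tested, and none passed with DESeq2 or limma-voom. Of the 7, 1 had an unadjusted p under 0.05. This was Tenm3, with 60.57, 113.1 and 137.3 CPM (lowest, median, highest) in RE, against a range of 145.9 to 178.5 CPM in the 4 AM libraries. These ranges did not overlap (as for 3.93% of all genes), but the difference did not pass (log2 fold change -0.55, SE 0.26, adjusted p = 0.455). The median log2 fold change was 0.07 over the 7 genes and 0.05 over all genes.

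Among the nuclei traced from the striatum, PVT is known for its limbic targets, and CL, PCN and CM form the rostral intralaminar group. In PVT compared with CL, PCN and CM together, 1 of 7 genes passed, against 2.18% of all genes tested. Over the 7 genes the median log2 fold change was -0.28, and over all genes -0.04. Adgrl2 had 77.84, 62.43 and 57.46 CPM in PVT, against 78.49, 114.6 and 232.3 CPM (lowest, median, highest) in the 12 other libraries. The highest PVT library lay just under the lowest of the others (5.00% of all genes did not overlap), and the log2 fold change was -0.91 (SE 0.26, adjusted p = 0.0399). This call was lost when any of the 3 PVT libraries, CL replicate 1, CM replicate 2 or 3 or PCN replicate 4 was left out, with adjusted p up to 0.22. It was also lost with the replicate number as a block (-0.89, adjusted p = 0.063).

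Adgrl3 was also lower in every PVT library (207.0 to 295.7 CPM) than in the others (311.5 to 857.6 CPM), without overlap (as for 5.00% of all genes), but did not pass (-0.78, SE 0.26, adjusted p = 0.0858). It passed in 4 alternatives, with adjusted p between 0.0239 and 0.0358. No amplification date held both PVT and the other 3 nuclei, so the date and the nucleus cannot be told apart. In PF compared with the same CL, PCN and CM libraries, none of the 7 genes passed with edgeR, DESeq2 or limma-voom, against 0.0605% of all genes tested. With edgeR none had an unadjusted p under 0.05. The largest difference was that of Adgrl2, at 160 ± 16.0 CPM in PF and 125 ± 39.1 CPM in the others (0.38, adjusted p = 1).

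SPA was set against PF, and the PF libraries are shared with the comparison above. Here 1 of 7 genes passed, against 0.309% of all genes tested, and the median log2 fold change was -0.17 over the 7 genes and 0.03 over all genes. Tenm2 had 85.7, 139.4, 144.1 and 107.4 CPM in SPA, against 253.4, 387.1, 232.0 and 214.1 CPM in PF. The groups did not overlap, which held for 13.86% of all genes tested, and the log2 fold change was -1.19 (SE 0.29, adjusted p = 0.0259). The call was lost in 6 of 8 fits that left out 1 library, with values of -1.29 to -0.97 and adjusted p up to 0.302. Adgrl1 lay between 176.4 and 330.5 CPM in SPA and between 398.5 and 472.6 CPM in PF, again without overlap (13.86% of all genes), but did not pass (-0.65, SE 0.30, adjusted p = 0.709). It passed when the 2 groups were fitted alone (adjusted p = 0.0261). SPA and PF shared no amplification date, so the date and the nucleus cannot be told apart.

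CM was traced with both tracers, which allows the tracer to be compared in 1 nucleus. None of the 7 genes passed between AAV and DiI with edgeR, DESeq2 or limma-voom, where 0.00605% of all genes tested passed, and none had an unadjusted p under 0.05. Tenm2 had 271 ± 56.9 CPM in the 4 AAV libraries and 183 ± 35.03 CPM in the 3 DiI libraries (0.56, SE 0.31, adjusted p = 0.821). These ranges did not overlap, which held for 8.05% of all genes tested. Tracer, sex, age and date changed together between these groups.

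The 7 nuclei traced from the striatum were then set against the 15 traced from cortex, with counts summed per nucleus so that each nucleus is 1 sample. None of the 7 genes passed with edgeR, against 18.4% of the 15440 genes tested, and 2 had an unadjusted p under 0.05. The median log2 fold change was -0.04 over the 7 genes and -0.08 over all genes. Adgrl2 had 112 ± 36.5 CPM in striatum-traced and 204 ± 71.7 CPM in cortex-traced nuclei (SD over nuclei, log2 fold change -0.80, SE 0.33, adjusted p = 0.0878). Its cortex-traced range ran from 9.60 CPM (AD) to 305 CPM (MD). Adgrl2 passed without AD (-0.89, adjusted p = 0.00103), with DESeq2 (-0.82, adjusted p = 0.0372) and within shared dates (-1.05, adjusted p = 0.00862). The shared dates held only PVT, IMD and CM by DiI on the striatum side and the motor nuclei VA, VL and VM on the cortex side.

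Tenm1 had 944 ± 129.3 CPM in striatum-traced and 627 ± 296.4 CPM in cortex-traced nuclei (0.66, SE 0.27, adjusted p = 0.0916). The striatum-traced nuclei lay between 792.2 and 1135 CPM, inside the cortex-traced range of 159.3 to 1059 CPM at the lower end and above it at the upper. Tenm2 had 288 ± 95.3 CPM in striatum-traced and 483 ± 292.1 CPM in cortex-traced nuclei (-0.68, SE 0.38, adjusted p = 0.212). Adgrl1 had 380 ± 98.0 CPM in striatum-traced and 368 ± 126.2 CPM in cortex-traced nuclei (0.08, adjusted p = 0.809). Within shared dates it was lower on the striatum side (-0.60, adjusted p = 0.0299). That fit held 3 and 5 sums of a nucleus and a date, and its cortex side was VA, VL and VM alone. The log2 fold changes of Tenm3 (-0.04), Tenm4 (-0.19) and Adgrl3 (0.14) were smaller than their errors. In the fit over all 22 nuclei the striatum-traced ones were all labelled with AAV and the cortex-traced ones with DiI, so tracer and target cannot be told apart. With CM taken from its DiI libraries instead, none of the 7 genes passed and 2519 genes were called.

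**Figure D4:**
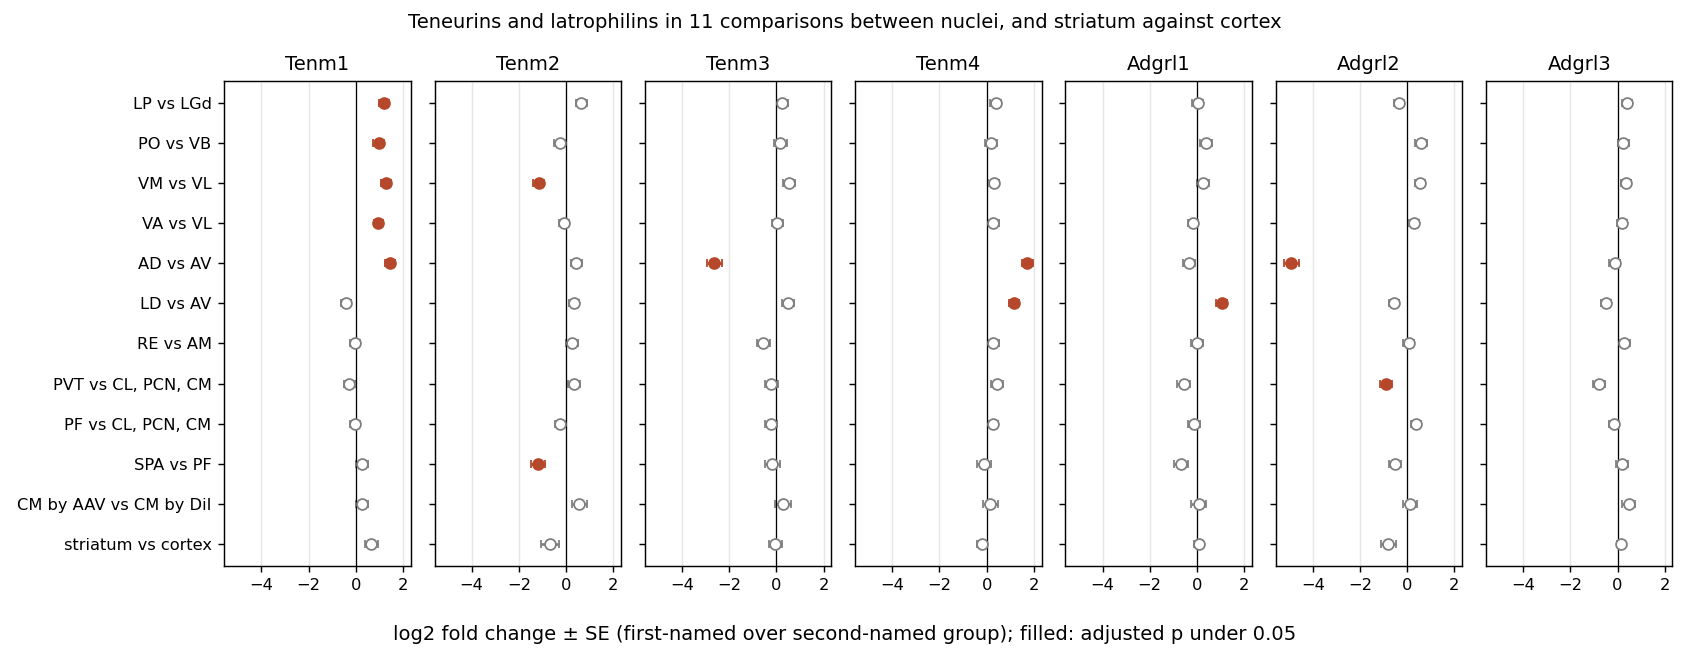
Log2 fold change ± SE of each gene (columns) in each comparison (lines of points, first-named over second-named group); filled points passed an adjusted p of 0.05. Tenm1 passed in 5 comparisons, all with higher levels in the first-named nucleus, and Adgrl2 in AD against AV reached -4.91.

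Tenm1 is X-linked, and 8 groups held libraries of both sexes. In a fit with sex as a term over those groups, none of the 7 genes passed between females and males (edgeR), against 0.0303% of the 16527 genes tested, and 1 had an unadjusted p under 0.05. The log2 fold change of Tenm1, females over males, was 0.08 (SE 0.12, adjusted p = 1). The gene with that p was Adgrl1, at -0.33 (SE 0.14, adjusted p = 0.95).

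Other known partners of these proteins were followed in a list of 18 genes, among them those of the FLRT adhesion proteins, the UNC5 netrin receptors that bind FLRTs, Nrxn2, Nrxn3, contactin 6, dystroglycan, the SHANK scaffolds and the G proteins Gna12 and Gna13. In the test of equal means over 22 nuclei 15 of the 18 passed, against 55.1% of all genes tested. The largest F statistics belonged to Nrxn3, a presynaptic adhesion gene (place 28 of all genes, adjusted p = 3.27e-34), and Unc5c (place 70, adjusted p = 1.12e-29). Nrxn3 was highest in MD at 1747 CPM and lowest in PVT at 107.5 CPM. Unc5c was also highest in MD, at 603 CPM, and lowest in VA, at 87.0 CPM.

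In AD compared with AV none of the 18 rose and 3 fell, against 5.69% of all genes tested that passed. Unc5d was read at 0 in 2 of 4 AD libraries and reached 6.60 CPM, against 70.4 to 263.7 CPM in AV (adjusted p = 1.34e-05). Shank3 had 17.8 ± 4.59 CPM in AD and 45.9 ± 20.7 CPM in AV (-1.37, adjusted p = 0.0241), a call that was lost within the shared date (-1.07, adjusted p = 0.543) and without AD replicate 1, 3 or 4. In LD compared with AV 4 of the 18 rose and 2 fell, against 5.5% of all genes tested. Shank3 had 133 ± 9.95 CPM in LD and 45.9 ± 20.7 CPM in AV (1.53, adjusted p = 0.00159), and Flrt2 107 ± 50.2 CPM in LD and 48.5 ± 21.8 CPM in AV (1.14, adjusted p = 0.0184). Within the shared date neither passed (Shank3 1.12, adjusted p = 0.375; Flrt2 0.79, adjusted p = 0.718), and Flrt2 was also lost without LD replicate 2 or 3. Unc5b was read at 0 in 4 of 5 LD libraries, against 5.04 to 28.3 CPM in AV (adjusted p = 0.000378), and Unc5d had 4.78 to 39.4 CPM in LD against 70.4 to 263.7 CPM in AV (adjusted p = 0.00999).

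In VM compared with VL 1 of the 18 rose and 1 fell, against 1.69% of all genes tested. Flrt3, a latrophilin ligand, had 45.4 ± 19.3 CPM in VM and 12.5 ± 4.44 CPM in VL (1.86, adjusted p = 0.021), and Unc5c 109 ± 20.9 CPM in VM and 208 ± 53.2 CPM in VL (-0.94, adjusted p = 0.0108). Both calls were lost within the shared date with log2 fold changes close to these (Flrt3 1.79, adjusted p = 0.095; Unc5c -0.90, adjusted p = 0.0597). In VA compared with VL none of the 18 rose and 2 fell, against 2.21% of all genes tested. These were Unc5c with 87.0 ± 34.7 CPM in VA and 208 ± 53.2 CPM in VL (-1.26, adjusted p = 1.92e-05) and Unc5d with 1.80 ± 1.72 CPM in VA and 30.4 ± 13.5 CPM in VL (adjusted p = 9.43e-05).

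In RE compared with AM 1 of the 18 rose and 3 fell, against 1.84% of all genes tested. Flrt3 had 65.8 ± 15.4 CPM in RE and 17.2 ± 2.97 CPM in AM (1.94, adjusted p = 0.0408). With the replicate number as a block it did not pass (1.86, adjusted p = 0.0864). Unc5b was read at 0 in 2 of 8 RE libraries and reached 8.07 CPM, against 22.9 to 46.2 CPM in AM (adjusted p = 0.0344), and Cntn6 had 26.0 ± 10.3 CPM in RE and 73.5 ± 32.6 CPM in AM (-1.50, adjusted p = 0.0314). These calls rest on few AM libraries: Flrt3 was lost without any 1 of the 4, Unc5b without AM replicate 1, 2 or 3, and Cntn6 without AM replicate 1 or 4, with adjusted p up to 0.277. With edgeR over all groups, none of the 18 passed in LP against LGd, PO against VB, PVT or PF against CL, PCN and CM, SPA against PF, or CM by AAV against DiI. With the compared groups fitted alone, 4 passed in SPA against PF, 2 in PVT and 1 in LP against LGd. The newer quasi-likelihood method gave 1 in each of these 3, DESeq2 gave 2 in PVT and 2 in PO against VB, voom gave 1 in LP, and within the shared date LP had 3. PF and CM had 0 under each of these.

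In the striatum-traced nuclei compared with the cortex-traced nuclei, 2 of the 18 rose and 7 fell, against 18.4% of all genes tested (within shared dates 1 rose and 4 fell). Unc5b had 43.5 ± 9.18 CPM in striatum-traced and 7.36 ± 9.61 CPM in cortex-traced nuclei (2.57, adjusted p = 0.0318), and Nrxn2 136 ± 19.6 CPM in striatum-traced and 98.6 ± 31.7 CPM in cortex-traced nuclei (0.50, adjusted p = 0.0443). Nrxn3 had 215 ± 82.0 CPM in striatum-traced and 789 ± 433.5 CPM in cortex-traced nuclei (-1.78, adjusted p = 0.00106), and Flrt3 16.1 ± 2.22 CPM in striatum-traced and 42.7 ± 25.7 CPM in cortex-traced nuclei (-1.27, adjusted p = 0.00904). Within shared dates, Flrt3 (-0.33, adjusted p = 0.749), Nrxn2 (0.09, adjusted p = 0.825) and Unc5b (1.91, adjusted p = 0.0827) did not pass. Unc5b was also lost without CM (adjusted p = 0.0537) or PVT (0.0589). Nrxn2 was lost in 13 of 22 fits that left out 1 nucleus (0.45 to 0.56, adjusted p up to 0.0913), with CM from its DiI libraries (0.47, adjusted p = 0.0631) and with other size factors (0.0501).

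The genes most like each member were found by Pearson correlation of log2 level over the 22 nuclei among 10547 candidate genes, as a description. For Tenm1 these were Mapk3 (r = 0.89) and Rmst (0.88), and for Tenm2 Myo6 (0.74) and Wnt2b (0.71). Tenm3 was closest to the ephrin receptor gene Epha4 (0.87) and to Ero1lb (0.84), and Tenm4 to Simc1 (0.76) and Stk32b (0.71). Adgrl1 was closest to Kmt2d (0.89) and the synaptic adhesion gene Clstn1 (0.86), Adgrl2 to the cadherin gene Cdh8 (0.91) and the potassium channel gene Kcnq3 (0.89), and Adgrl3 to Rfx3 (0.86) and Dzank1 (0.85). The nuclei share depth and tracer within classes, and a single nucleus can carry such a value: Tenm3 and Adgrl2 had an r of 0.59 over 22 nuclei and of -0.11 without AD. Of the 14 genes named, 3 also held 1 of the first 2 places by Spearman rank.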

How the data were processed

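Bulk RNA-seq was measured in 120 libraries. The labels' protocols describe dissection, sorting of fluorescent cells by hand, RNA isolation on PicoPure columns with ERCC spike-ins, and cDNA amplification with an Ovation kit, which does not keep the strand. Build mm10 and the programs cutadapt (1.16), STAR (2.5.3a) and featureCounts (1.52) are named per the submitters' processing notes, while their settings and the annotation are "not given in the sources used here". What the authors deposited is a table of whole-number read counts for 16538 genes, not normalized, and a table of tracer, sex, age, amplification date, animal and cell number per library. Gene IDs of the 7 members, with their versions, were found in GENCODE vM21, from which coordinates and exon lengths were taken.

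Groups followed the library titles. The counts were scaled by trimmed mean of M-values and fitted in 1 model over all groups with edgeR 4.0.16 (R 4.3.3, quasi-likelihood, filterByExpr with a minimum count of 10, 16527 genes), with two-sided tests and Benjamini-Hochberg adjustment over all genes at 0.05. CM was taken from its AAV and AM from its DiI libraries for the 22 nuclei. Target classes were tested on counts summed per nucleus. Levels are the scaled CPM computed from these counts, and the likeness search used log2 CPM with a prior count of 2. Libraries of a group often came from separate animals, but animals were shared between groups, and pooled libraries mix animals. The tests were checked on simulated data, with 1 spread for all genes. It was set in advance, the same for libraries and for sums per nucleus, and not taken from the members. The shares below hold for that spread, and those for a member can be higher or lower. For AD against AV, fitted with some of the other groups, 23% of 2-fold and 99% of 4-fold changes were recovered. For striatum against cortex these were 62% and 100%. Differences of 2-fold or less can thus fail to pass, and a gene that did not pass may still differ. Figures were drawn with Python 3.11.15 and matplotlib 3.10.9.

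The members and the list of 18 partners were chosen with earlier results of these data known. All 7 members are named. Of the partners, up to 2 called genes per direction and comparison were named by absolute log2 fold change, and the 3 with the largest F statistic over 22 nuclei; 1 of these 3 is not reported here. For each member the 2 genes of highest Pearson r were named among genes with at least 10 CPM in their highest nucleus.

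Alternatives were DESeq2 1.42.0, limma 3.58.1 (voom with the animal as a block), other size factors, no filter on low counts, the compared groups alone, the newer quasi-likelihood method, a sex term, the replicate number as a block, within-date fits and leaving out each library. Those without animals over 400 days, without the 33.7-Gad2 library or without libraries over 200 CPM of oligodendrocyte markers were chosen after the data were seen. In the deposited table the same number marks the same animal in 4 of 4 cases for RE and AM, which are compared, and for PCN and CM by AAV, which are pooled on 1 side of a comparison. Other compared groups shared 0 to 6 animals, with a matching number in 0 to 3 cases. In the voom fit, the block of a pooled library was its whole set of animals. Such a library was thus not linked to libraries of only some of these animals. Of the LGd libraries 4 of 5 were pooled, and of the VB libraries 3 of 4.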

Additional observations from a re-analysis of the deposited data

Results flagged for a closer look

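In groups of 4 to 10 libraries, a library was picked out where its gap to the nearest other library, divided by the range of its group, passed the 95% critical value of Dixon's test. Of 140 pairs of a gene and a group examined, 19 had such a library, where chance alone picks about 1 in 20. No cause was tested.

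PCN replicate 4 was picked out for 3 genes, with more Tenm1 (1432 CPM, others 918.3 to 950.2) and Tenm4 (421.9 CPM, others 157.3 to 174.9) and less Tenm2 (251.1 CPM, others 328.2 to 343.8). LGd replicate 1 was picked out for 2 genes, with more Tenm1 (426.2 CPM, others 201.8 to 243.3) and more Tenm4 (409.3 CPM, others 223.4 to 264.0).

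Among the other teneurin values, AM replicate 3 had 1339 CPM of Tenm1 (others 725.8 to 829.4) and AV replicate 1 had 112.2 CPM (others 198.2 to 252.2). VPMpc replicate 2 had 176.6 CPM of Tenm2 (others 47.72 to 92.43), and VPMpc replicate 4 had 435.8 CPM of Tenm3 (others 68.58 to 201.4). SPA replicate 2 had 165.2 CPM of Tenm4 (others 259.0 to 278.1).

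Among the latrophilins, Adgrl1 stood apart in LD replicate 1 at 839.0 CPM (others 335.0 to 442.2), in PO replicate 3 at 613.7 CPM (others 227.5 to 373.7) and in VL replicate 2 at 283.8 CPM (others 528.1 to 630.5). Adgrl2 stood apart in AD replicate 3 at 16.29 CPM (others 6.341 to 7.883), which still lies below every library of the other 21 nuclei. It also stood apart in AM replicate 2 at 198.4 CPM (others 239.7 to 247.0), LP replicate 1 at 275.5 CPM (others 104.9 to 190.6) and PF replicate 2 at 136.3 CPM (others 166.7 to 169.8). Adgrl3 stood apart in RE replicate 3 at 910.0 CPM (others 389.4 to 521.6) and in VM replicate 2 at 431.8 CPM (others 252.3 to 308.0). Of these libraries, LP replicate 1 also held 1024 CPM of summed oligodendrocyte markers, VM replicate 2 held 556.5 CPM, VPMpc replicate 2 held 293.3 CPM and VL replicate 2 held 233.9 CPM; the others held under 200 CPM. Some calls of the report were lost without a library named here: Adgrl1 in LD against AV without LD replicate 1, Adgrl2 in PVT against CL, PCN and CM without PCN replicate 4, and Tenm2 in SPA against PF without SPA replicate 2 or PF replicate 2.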

How the results depend on the processing

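Of the 7 genes, all passed the test of equal means over 22 nuclei under all 7 alternatives, and the 4 calls in AD against AV held under every alternative and without each AD library in turn (libraries were left out only in groups of 2 to 5). The count of genes called depended more on the tool. With DESeq2 it was 1833 (edgeR, as reported: 940) for AD against AV, 1743 (909) for LD against AV, 1161 (599) for LP against LGd, 1230 (438) for PO against VB, 679 (280) for VM against VL, 819 (365) for VA against VL, 542 (304) for RE against AM, 1141 (360) for PVT, 280 (10) for PF, 251 (51) for SPA against PF and 473 (1) for CM by AAV against DiI. With only the compared groups in the fit it was 475 for AD, 297 for LD, 202 for VA, 614 for RE, 1031 for PVT, 5 for PF, 1084 for SPA and 12 for CM. The newer quasi-likelihood method gave 522 for VM, 627 for VA, 617 for RE, 1083 for PVT, 24 for PF, 149 for SPA and 9 for CM, and voom gave 503 for VM, 619 for RE, 943 for PVT, 23 for PF, 164 for SPA and 26 for CM. With sex as a term PF had 20. Within amplification dates the counts were 349 for AD, 118 for LD, 104 for PO, 232 for VA and 874 (main 2837) for striatum against cortex, with fewer libraries in each, and 5 for PF, whose libraries were all of 1 date, so that this fit is that of the groups alone. Without libraries over 200 CPM of oligodendrocyte markers they were 167 for PO, 232 for VA and 138 for VM.

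Of the members, LD against AV had 0 calls within dates (main 2), and PO against VB 0 within dates and 0 without libraries over 200 CPM of oligodendrocyte markers (main 1). LP against LGd had 2 with the groups alone, with voom and within dates (main 1). PVT had 3 with the groups alone and 2 with DESeq2, voom and the newer method (main 1), SPA against PF 2 with the groups alone (main 1), and striatum against cortex 1 with DESeq2 and 2 within dates (main 0). There, Adgrl1 changed sign within dates (-0.60) and so did Unc5c (0.0181, adjusted p = 0.984). Those dates held only VA, VL and VM as cortex-traced nuclei. The causes were not tested. With 1 library left out, members called ranged over 1 to 3 for LD, 0 to 1 for PO, 0 to 1 for PVT, 0 to 1 for SPA and 0 to 1 for striatum against cortex (1 nucleus left out), and genes called over 0 to 2 for CM, 6 to 13 for PF, 158 to 337 for PVT, 187 to 244 for RE and 24 to 48 for SPA. In addition, 63 results of members passed under no alternative, and 16 of these changed sign in some alternative. In plain library sizes, 152 of 168 group means moved by less than 1 SD. The 168 include the means of the AM group by AAV, whose 1 library gives no SD, so these could not meet the rule.

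The replicate block was 1 term for the replicate number over all groups at once. A number therefore had the same coefficient in every group, and the shared animals of RE and AM were not fitted as pairs of their own. For RE and AM, whose numbers mark the same animals, it gave 0 members and 282 genes called and changed no member's call. PCN and CM also share animals by number, but lie on 1 side of their comparisons. Elsewhere a number marks the same animal in at most 3 cases a pair, and there the block gave 836 genes called for AD, 757 for LD, 521 for LP, 433 for PO, 259 for VM, 290 for VA, 288 for PVT, 9 for PF, 45 for SPA and 1 for CM. Under the block PVT had 0 members called (Adgrl2 -0.89, adjusted p = 0.063). With a lowest member count of 50 reads, reads did not limit the detection of any member; libraries held 14 to 200 cells, and groups 1 to 9 libraries, which limits how small a difference could pass.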

Other observations

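The 1 AM library labelled with AAV, which entered no comparison, had 619.0 CPM of Tenm1, 715.2 CPM of Tenm2, 279.8 CPM of Tenm3 and 201.9 CPM of Tenm4. It had 329.6 CPM of Adgrl1, 277.4 CPM of Adgrl2 and 538.6 CPM of Adgrl3. It was amplified on another date than the 4 AM libraries labelled with DiI. The share of all genes for which it lay outside their range was not computed, and the part of the tracer was not tested. The AAV library was above the DiI libraries for Tenm3 (145.9 to 178.5 CPM with DiI), Adgrl2 (198.4 to 247.0 CPM) and Adgrl3 (399.0 to 500.0 CPM). It was below them for Tenm1 (725.8 to 1339 CPM) and Tenm4 (256.3 to 354.1 CPM), and within their range for Tenm2 and Adgrl1.

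Among pairs of members, described over the 22 nuclei with no test, Tenm1 and Adgrl3 had a Pearson r of 0.60 (Spearman rho 0.72) and Tenm2 and Tenm4 an r of 0.62 (rho 0.58). Within groups, over 120 libraries as deviations from their group means, these were 0.40 for Tenm1 and Adgrl3 and -0.02 for Tenm2 and Tenm4. Adgrl2 and Adgrl3 had an r of 0.25 over nuclei and 0.41 within groups. Libraries share depth and amplification date, and several share an animal.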
